A study of Rattus norvegicus with 20 samples.

Results

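In the soleus of contused rats that swam, 258 genes stood below every uninjured and every sedentary contusion library, while their levels after complete transection overlapped the uninjured range. They are called swimming-low genes here. They were taken from 13398 genes tested, of which they are 1.93%, in RNA sequencing of 20 libraries in 5 groups of 4. Levels are CPM, the counts of a gene per 1000000 counts of its library, scaled with the trimmed mean of M values (TMM). Of the 11566 genes that averaged at least 1 CPM, 1472 had all 4 swimming values below all uninjured values, and 608 had them below all sedentary contusion values as well. In 418 of these the contusion mean was at least 1.3 times the swimming mean. In 259 of the 418 the range after transection overlapped the uninjured range, and 1 abundant gene among these was left out by its identifier. The genes were thus selected on their swimming, contusion, transection and uninjured values, which are given as a description. Walking values were not compared with any group in the choice. They entered it through the low-count filter, the scaling and the mean CPM over all 20 libraries. Without walking library 1 the same conditions gave 208 genes, 204 of them among the 258.

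Sprague-Dawley rats had the spinal cord contused (25 g-cm) or cut through at T2. The contused rats either swam (Contusion SCI + SWIM), walked in shallow water (Contusion SCI + SWW) or had no exercise (Contusion SCI, here sedentary contusion), and further rats were transected (Complete transection SCI) or uninjured (No SCI), both without exercise. Exercise started 2.5 weeks after injury and was given on 5 days a week for 10 weeks, and the rats were kept in small cages from day 4. Muscle was taken at 13.5 weeks in both exercise groups, 8.5 weeks after transection and 11.5 weeks after contusion alone, and uninjured rats carry the label 11.5 weeks, so swimming differs from contusion in time as well as exercise but not from walking. The libraries come from whole muscle, in which fewer cells of a type and less RNA per cell cannot be told apart. The deposited table names genes by Ensembl identifier alone, and none of the 24613 identifiers was paired with a symbol, so the marker genes of soleus fibres, nerve, fat, vessels or blood cells were not read and no function is given for any gene.

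The soleus is a slow postural muscle of the hind limb that works against gravity through most of the waking day. Injury of the thoracic cord cuts the descending drive to the motor neurons of the hind limb, and the unloaded muscle loses mass and shifts toward faster fibres. The exercises differ in load: a swimming animal is carried by the water, whereas in shallow water the limbs still bear part of the body weight. The gene set bears on whether a lower transcript level goes with water exercise in general or with swimming.

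Library totals ran from 21165832 to 39729930 counts. The swimming-low genes were well covered, with a median over genes of 995 counts per library. The smallest count of any of them in a single library was 12, and 25 of the 258 had a library with fewer than 100 counts. Uninjured library 4 stood above its group on these genes. Among the walking libraries, library 1 lay lowest and library 4 highest, with libraries 2 and 3 between them. Transection library 3 had the lowest scaling factor, at 0.711.

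The swimming-low gene with the highest mean level was ENSRNOG00000010389. It stood at 1532, 1564, 1303 and 1350 CPM in the swimming libraries, and at 1539, 2039, 1959 and 1905 CPM in the walking libraries. It stood at 1578, 1805, 2213 and 1336 CPM after transection, at 2087, 2058, 1691 and 1656 CPM after contusion alone, and at 1807, 1861, 1746 and 1941 CPM in uninjured muscle. All swimming values lay below the contusion and uninjured ones, walking library 1 lay inside the swimming range while the other walking libraries lay among the uninjured or above them, and the transection values overlapped those of every other group. The swimming mean was 1437 ± 130 CPM, or 77.2% of the walking mean of 1861 ± 222 CPM (SD, n = 4 each). The log2 difference between swimming and walking was -0.37 (SE 0.15), which did not pass the test over all genes (edgeR quasi-likelihood test, Benjamini-Hochberg adjusted p = 0.263). Walking and contusion alone differed by -0.01 on the log2 scale (SE 0.15, adjusted p from edgeR 0.99976). With every library, edgeR did not call the gene lower with swimming than with contusion alone (adjusted p = 0.136) or in uninjured muscle (0.0948). The latter passed without transection library 3 (0.0452). The ratio of contusion to swimming in this gene was 1.303, just inside the limit of 1.3.

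The swimming-low gene with the largest ratio of contusion to swimming was ENSRNOG00000031368. Its level was 3.83, 3.71, 4.95 and 4.78 CPM with swimming and 7.13, 10.1, 6.64 and 12.2 CPM with walking. It was 11.5, 20.6, 16.6 and 12.8 CPM after transection, 16.7, 11.2, 8.45 and 13.5 CPM after contusion alone, and 16.2, 15.8, 16.1 and 27.9 CPM in uninjured muscle. Swimming values lay below all other libraries, walking values overlapped those of contusion, and uninjured library 4 lay far above its group. The swimming mean of 4.32 ± 0.638 CPM was 34.6% of the contusion mean of 12.5 ± 3.52 CPM and 22.7% of the uninjured mean of 19.0 ± 5.93 CPM (SD, n = 4 each). Against walking, at 9.02 ± 2.62 CPM (SD, n = 4), the log2 difference was -1.07 (SE 0.25), outside the limit of 0.05 on the adjusted p in edgeR (0.161). DESeq2 placed it inside the limit (adjusted p = 0.0192), and so did edgeR when walking library 1 was left out (0.0352), while in the other settings run it was 0.0967 to 0.490. Walking and uninjured muscle also differed by -1.07 on the log2 scale (SE 0.25), just outside the limit in edgeR (adjusted p = 0.0514). This difference passed with DESeq2 (4.59e-03), with library totals (0.0299) and, with edgeR, without swimming library 2 (0.0308) or contusion library 3 (0.0465). It did not pass in the other settings run, where the adjusted p from edgeR was highest without uninjured library 4 (0.299, log2 difference -0.83), walking library 3 (0.213) and walking library 1 (0.149).

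**Figure D1:**
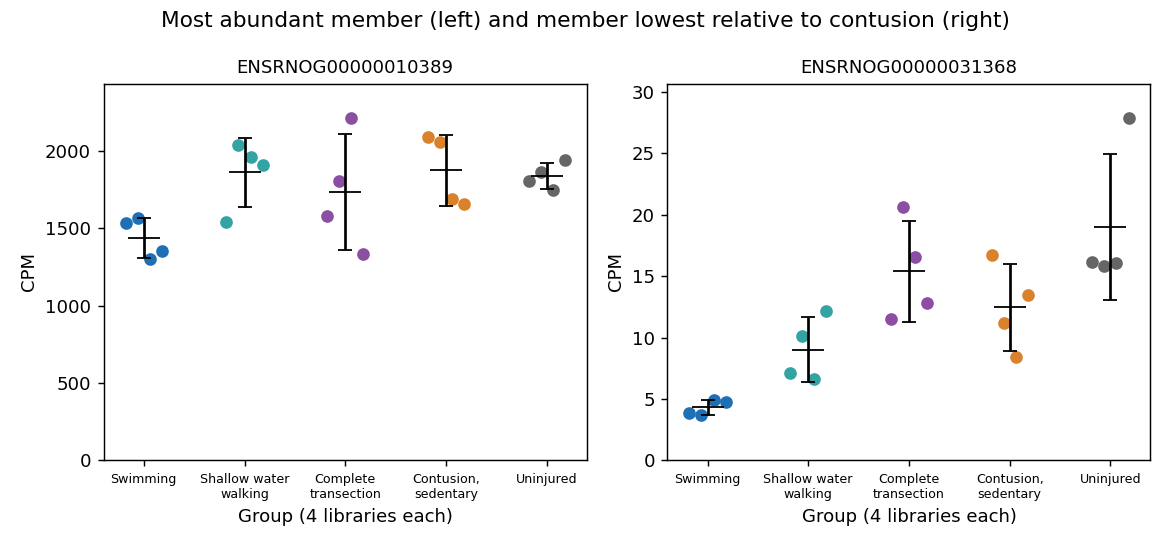
CPM of the most abundant swimming-low gene (left) and of the one lowest relative to contusion (right) in the 5 groups; points are libraries 1 to 4 from left to right, and bars are the mean ± SD. On the left walking library 1 sits among the swimming libraries; on the right all swimming libraries lie below 5 CPM and uninjured library 4 lies at 27.9 CPM.

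Most swimming-low genes differed from contusion by a small and similar amount. The swimming mean ran from 34.6% to 76.9% of the contusion mean, with a median of 71.8% and quartiles of 67.6% and 74.3%. Only 2 genes were at or under 50% of contusion, and in 51 the contusion mean was at least 1.5 times the swimming mean. Against uninjured muscle the swimming mean ran from 22.7% to 85.0%, with a median of 68.5%, and 14 genes were at or under 50%. The set crowds the ratio limit: 137 further genes met every other condition with a ratio below 1.3. The 3 nearest ratios inside the limit were 1.301, 1.302 and 1.302, and the 3 nearest outside were 1.299, 1.299 and 1.299. The space between groups was also narrow, since the highest swimming value lay a median of 7.55% below the lowest contusion or uninjured value, and less than 5% below it in 81 genes.

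By edgeR's test over all genes, 134 of the 258 were called lower with swimming than with contusion alone, where 2.25% of all tested genes were, and 230 were called lower than in uninjured muscle, where 10.1% of all genes were (adjusted p below 0.05). The choice of genes used both comparisons, so nothing is read from these counts. The contusion count rested on single libraries. It was 0, 18 and 7 without contusion library 1, 2 and 4, where 1, 40 and 21 of all genes were called lower. It was 67, 20, 78 and 71 without swimming library 1, 2, 3 and 4, where 147, 49, 188 and 207 of all genes were, and 202 without transection library 3, where 521 were. The lower level with swimming was also described in a library left out of the comparisons that chose the genes. With a swimming library left out, the same conditions chose 303 to 353 genes, and the omitted library lay below all contusion and uninjured libraries in 66.6% to 81.2% of them, against 19.5% to 26.2% of genes with a mean of at least 1 CPM. With a contusion library left out, that library lay above all swimming libraries in 77.2% to 97.7% of the genes chosen, against 21.9% to 26.0%. The other libraries were the same in each reading, and the conditions had already made them high or low. Part of the excess over all genes is therefore set by the choice, and nothing is read from it.

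**Figure D2:**
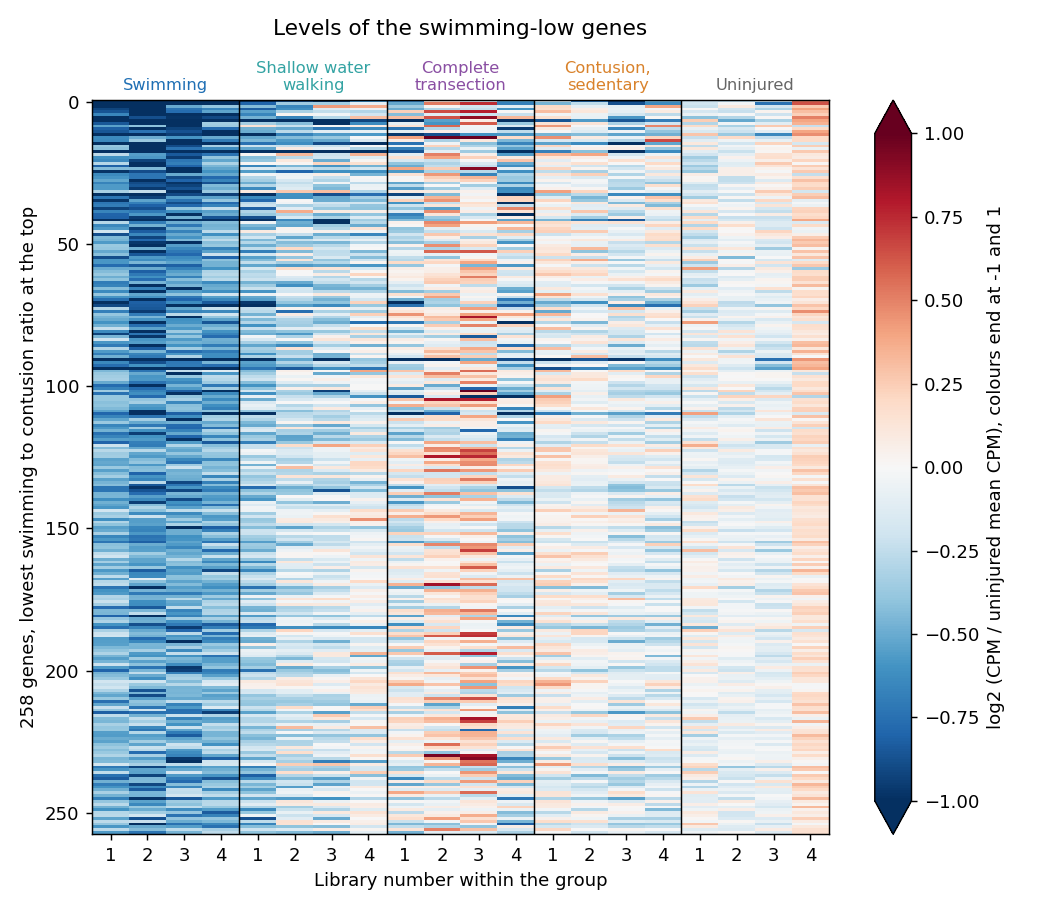
log2 of CPM over the uninjured mean CPM for the 258 swimming-low genes (rows, lowest ratio of swimming to contusion at the top) in 20 libraries (columns, 4 a group). The swimming columns are blue throughout, walking library 1 is the bluest of the walking columns, transection columns are mixed, and uninjured library 4 is red in most rows.

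In most of these genes the walking mean lay between those of swimming and contusion. It lay above the swimming mean in 258 of 258 genes and below the contusion mean in 236, and in 22 genes it was at or above contusion. In 197 of the 236 the walking mean was nearer to contusion than to swimming on the log2 scale, and in 39 it was nearer to swimming. The walking mean was a median of 90.8% of the contusion mean, with quartiles of 86.4% and 96.2%, and 86.8% of the uninjured mean. Over all tested genes the medians were 100.4% and 101.4%. The conditions asked for low swimming and high contusion and uninjured values, so an intermediate walking level is partly set by the choice of genes, and a name that limits the lower level to swimming goes beyond these values.

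The direct comparison of the exercise groups, at the same labelled time, called 0 of the 258 genes with edgeR, where 0.00746% of all tested genes were called lower with swimming. The smallest adjusted p among the 258 was 0.160. DESeq2 called 24 of them lower with swimming, out of 64 such calls over all genes. Before adjustment, 185 of the 258, or 71.7%, had p under 0.05, against 15.3% of all tested genes, with swimming values that the choice had made low. The median log2 difference was -0.35, with a median SE of 0.14, against 0.01 over all tested genes. The 4 walking values lay above all 4 swimming values in 120 of the 258, or 46.5%, against 3.49% of all genes. In the other 138 the groups overlapped. Both the number apart and the difference depend on the scaling. With library totals alone in place of TMM, walking lay wholly above swimming in 44 of the same 258 genes, and their median log2 difference was -0.23.

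With TMM the overlap came mostly from walking library 1. This library was at or below the highest swimming value in 105 of the 258 genes, and walking libraries 2, 3 and 4 were in 36, 38 and 22. It was the lowest walking library in 153 genes, or 59.3%, while over all genes with a mean of at least 1 CPM it was the lowest in 32.1%. Walking library 4, the deepest of the group at 36604027 counts, was the highest in 142 genes. It was the lowest in 6.59%, against 26.1% of genes with a mean of at least 1 CPM. Without walking library 1 the groups were apart in 195 of the 258 genes, against 10.6% of all genes. Leaving out a library can only keep or raise this number. Library 1 was picked after it was seen to be low, so nothing is read from the rise. Without it edgeR called 30 of the 258 lower with swimming, out of 101 such calls over all genes. Without walking library 2, 3 or 4 it called 0 of the 258. The scaling factors of walking libraries 1 to 4 were 1.16, 1.06, 0.991 and 0.948, against 1.06 to 1.18 in swimming libraries. They fell as the summed level of the 258 genes rose. The same held for transection libraries 1 to 4, with factors of 0.909, 0.771, 0.711 and 0.953. In swimming and contusion libraries the sums did not follow this order. A lower factor raises every CPM value of its library by construction, so the factors enter these sums directly. How far they set the order of the libraries was not tested, nor was a part of depth or another property.

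**Figure D3:**
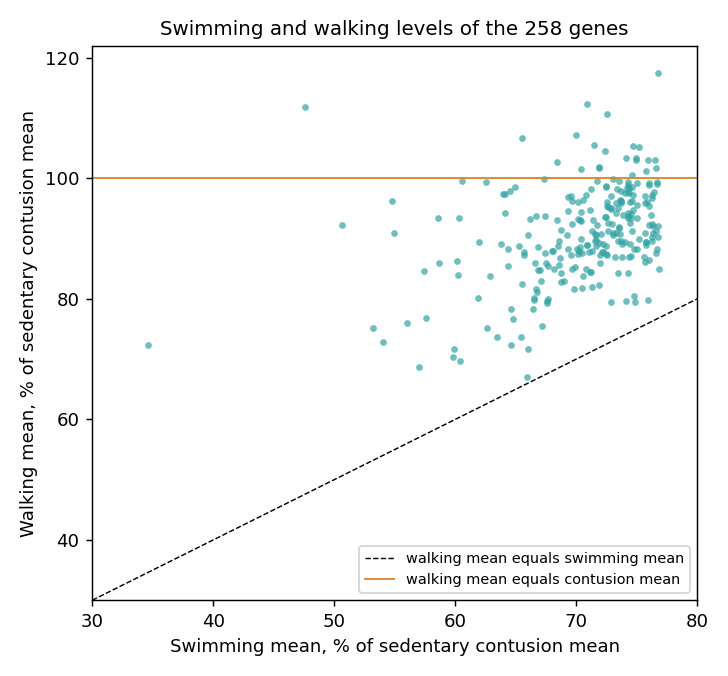
Swimming mean (horizontal) and walking mean (vertical) of the 258 swimming-low genes, both in percent of the sedentary contusion mean; each point is a gene. All points lie above the dashed line, where both exercise means are equal, and 236 lie below the solid line, where walking equals contusion.

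Walking was also set against the groups without exercise. Against contusion alone 0 of the 258 genes were called with edgeR or DESeq2, where 0 of all tested genes were. Before adjustment, edgeR gave p under 0.05 for 29 of the 258, or 11.2%, against 3.18% of all genes. The median log2 difference was -0.14 (median SE 0.14), against 0.01 over all genes, and walking values overlapped contusion values in 232 genes. All 4 walking values lay below all contusion values in 26 genes, or 10.1%, against 1.87% of all genes. Against uninjured muscle 3 of the 258 genes were called, all lower with walking, or 1.16%, where 0.299% of all tested genes were called lower. Their walking means were 43.7%, 63.7% and 64.2% of the uninjured means. In both directions together, 62 of all genes were called. The count among the 258 was 0 without uninjured library 4 or walking library 3, where 7 and 5 of all genes were called. It was 1 without uninjured library 2, walking library 1 or walking library 2, where 75, 10 and 46 were. It was 11 without swimming library 2 and 8 without transection library 3, where 207 and 94 were, and DESeq2 called 19, out of 371 over all genes. The median log2 difference was -0.20 against 0.02 over all genes, and walking lay wholly below uninjured muscle in 44 genes, or 17.1%, against 5.09% of all genes. Contusion and uninjured values had been required to be high, which lowers walking relative to them.

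Summed over the 258 genes, the level was 16118 ± 692 CPM with swimming and 20735 ± 2039 CPM with walking. It was 23367 ± 2904 CPM after transection, 22551 ± 1349 CPM after contusion alone and 23405 ± 2066 CPM in uninjured muscle (SD, n = 4 each). By library it was 16703, 15184, 16009 and 16575 CPM with swimming and 18047, 20875, 21013 and 23006 CPM with walking. All walking libraries thus lay above all swimming libraries in the sum, and walking library 1 came nearest to them. Relative to the uninjured mean, the median gene per library lay between -0.61 and -0.48 on the log2 scale in swimming libraries and between -0.35 and -0.07 in walking libraries. It lay between -0.15 and 0.08 after transection, between -0.12 and 0.03 after contusion and between -0.07 and 0.17 in uninjured libraries. The highest uninjured value was library 4, which was the highest of its group in 184 of the 258 genes. It was the lowest in 3.88%, against 27.3% of genes with a mean of at least 1 CPM. Without this library edgeR called 163 of the 258 genes lower with swimming than in uninjured muscle, and the calls over all genes also fell, to 770 without it against 1347 with it.

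**Figure D4:**
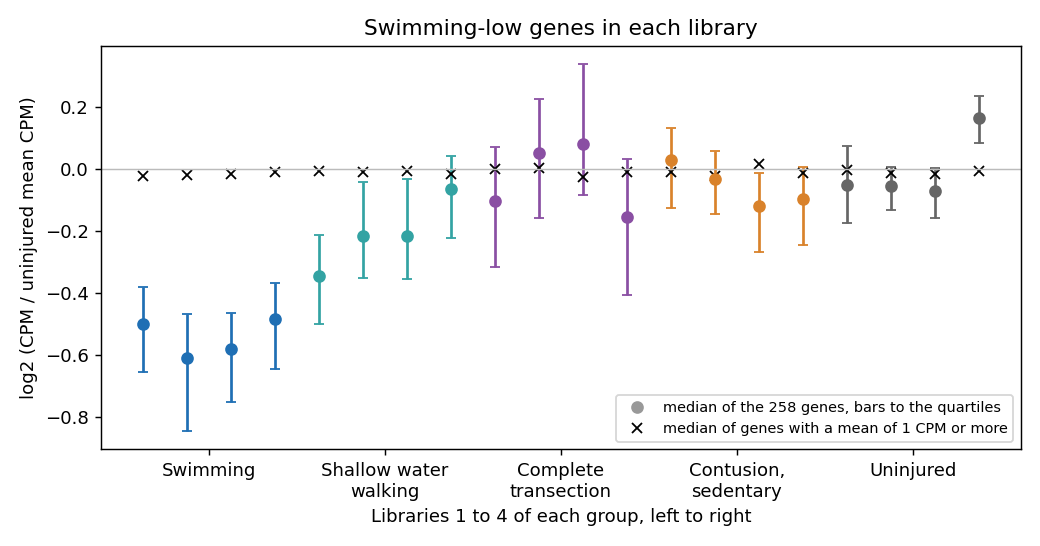
Median log2 of CPM over the uninjured mean CPM of the 258 swimming-low genes in each library (dots, bars to the quartiles), and the median of all genes with a mean of at least 1 CPM (crosses). Swimming libraries lie lowest, walking library 1 comes next, walking library 4 lies within the range of the groups without exercise, uninjured library 4 lies above its group, and the crosses stay near 0.

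After transection the swimming-low genes went both ways. The conditions fixed that transection and uninjured ranges overlap and thereby kept out 159 genes that met the rest; transection lay wholly below uninjured muscle in 137 of these and wholly above it in 22. Among the 258, the transection mean was above the uninjured mean in 124 genes and below it in 134, with a median of 98.3% and a range of 46.7% to 172%. By edgeR 13 were called higher after transection than in uninjured muscle, where 13.4% of all tested genes were, and 16 were called lower, where 14.7% of all genes were. The 13 stood at 121% to 172% of the uninjured mean after transection and at 68.0% to 79.8% with swimming. The 16 stood at 46.7% to 79.5% after transection and at 37.9% to 70.5% with swimming. The number called was 14 and 19 without transection library 1 and 2, and 18, 17 and 18 without uninjured library 1, 3 and 4, while 3050 to 3226 of all genes were called in these settings, against 3765 with every library. All swimming values lay below all transection values in 181 of the 258 genes, or 70.2%, against 11.9% of all genes. The conditions had put swimming below uninjured muscle and tied the transection range to the uninjured one. This share is therefore partly set by the choice of genes. Transection library 3 was the highest of its group in 151 genes. It was the lowest in 8.91%, against 35.3% of genes with a mean of at least 1 CPM. Transection library 4 was the lowest in 145, or 56.2%, against 29.0%. Within this group the genes thus also tended to be high or low by library.

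Contusion alone and uninjured muscle both entered the choice of genes, so their values are set side by side as a description. The contusion mean was below the uninjured mean in 162 genes and above it in 96, with a median of 96.8%. No gene of the 258 was called with edgeR, where 0 of all tested genes were, 20 of them had an unadjusted p under 0.05, or 7.75%, against 9.8% of all genes, and DESeq2 called 1, out of 102 over all genes. Within groups the median coefficient of variation of the 258 genes was 11.1% with swimming, 11.8% with walking, 14.5% after transection, 9.52% after contusion and 11.5% in uninjured muscle. Over genes with a mean of at least 1 CPM it was 13.9% to 18.8%. The conditions ask for groups that do not overlap and so favour genes with little spread. The conditions did not compare walking libraries with any group, where the value was 11.8% against 16.1% over genes with a mean of at least 1 CPM. The 258 genes were also more abundant than those genes, at a median of 34.1 against 15.2 CPM. Whether abundance had a part in the smaller spread was not tested.

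The swimming-low genes were mostly of middle to high abundance. Their median level was 34.1 CPM, against 15.2 CPM over genes averaging at least 1 CPM, and 172 of the 258 lay between 10 and 100 CPM. With the 11566 genes divided into 10 classes by mean level, the share of swimming-low genes was 0.259% in class 1, the least abundant, 1.99% in class 5 and 4.67% in class 10. The same conditions with the direction turned round gave 358 swimming-high genes, whose median level was 9.35 CPM and whose share was 3.54% in class 1 and 0.691% in class 10. Over all genes of a class, the median log2 difference between swimming and contusion fell from 0.16 in class 1 to -0.18 in class 10. The shares of both sets run along with this trend, and whether it sets them was not tested. The swimming-high genes also differed more in size: 65 of them, or 18.2%, stood at 200% of contusion or more, while 2 of the swimming-low genes stood at 50% or less.

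**Figure D5:**
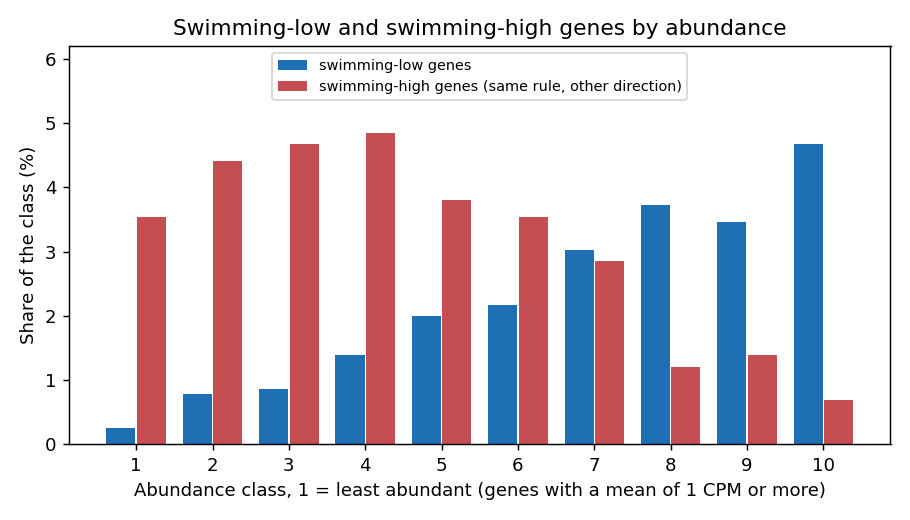
Share of genes in each of 10 abundance classes (percent of the class) that were swimming-low or, by the same conditions in the other direction, swimming-high. Swimming-low genes take 0.259% of class 1 and 4.67% of class 10; swimming-high genes take 3.54% and 0.691%.

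The size of the set depends on how libraries are scaled. The TMM factors were 1.06 to 1.18 in swimming and 0.928 to 1.05 in contusion libraries. Scaled by library totals alone, 16 genes met the conditions in place of 258, 10 of them among the 258, and the swimming-high set held 648 genes. The median of all genes, swimming relative to contusion, moved to 0.19 on the log2 scale, against 0.01 with TMM. The median log2 difference of the 258 genes between swimming and contusion was -0.29 with library totals, against -0.48 with TMM, and all swimming values were below all contusion and uninjured values in 67 of them. A scaling factor moves all genes of a library alike, so the difference relative to the median of all genes hardly depends on it by construction. With TMM the 258 lay at -0.49 against contusion, which the choice of genes used. They lay at -0.36 against walking, with swimming values that the choice had made low. Neither value bears on which scaling is right. With median-of-ratios scaling 239 genes met the conditions, and 229 of these were among the 258.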

How the data were processed

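The authors deposited raw read counts, as whole numbers, for each Ensembl gene and library. Poly-A libraries were stranded, per the labels' protocols. The submitters' processing notes name FastQC 0.10.1, HTSeq and build rn6. Aligner, annotation and strand setting are not given in the sources used here. How reads of genes that overlap or have near-identical copies were counted is therefore not known. No library was taken for a copy: chi-square per degree of freedom between pairs of a group was 26.5 to 517. The design text speaks of muscle from each animal but numbers none, so p-values measure the spread between libraries.

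Counts were filtered with filterByExpr (minimum count 10), scaled with TMM and tested in edgeR 4.0.16 (R 4.3.3), by the quasi-likelihood F test with robust dispersions, a mean per group and 15 residual degrees of freedom. Adjusted p-values (Benjamini-Hochberg) run over 13398 genes. SE was the absolute log2 change over the square root of F. Alternatives were other scalings and filters, DESeq2 1.42.0, the compared groups alone, a replicate block and each library left out. The genes, lists and tests were chosen with earlier results of these data known. The reference table paired 0 of 24613 identifiers with symbols, so gene lists and promoters were not used, and by a fixed rule the most abundant gene and the gene with the highest contusion to swimming ratio were named. Reading a left-out library, leaving out transection library 3 with swimming library 2, and leaving out walking library 1 with the genes kept were chosen after seeing the data. Figures were drawn with matplotlib 3.10.9.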

Additional observations from a re-analysis of the deposited data

Results flagged for a closer look

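In 30 groups of 4 values examined (levels of the named genes, the median and summed level of the swimming-low genes, library totals and scaling factors), in 5 a library lay far from the rest; about 1.5 would by chance. Uninjured library 4 accounted for 4 of them. It held 27.9 CPM of ENSRNOG00000031368, the next highest being 16.2. The median swimming-low gene stood in it at 0.166 above the uninjured mean on the log2 scale, the next highest being -0.050, and the genes summed to 26495 CPM, the next highest being 22596. Its scaling factor was 0.982, the next lowest being 1.08. Walking library 4 held 36604027 counts, the next highest being 23665744.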

How the results depend on the processing

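The number of genes that met the conditions stayed within 1.5 times of 258 with median-of-ratios scaling and without the low-count filter, and it ran from 208 to 359 with a library left out; it was 16 with library totals and 51 at a ratio of at least 1.5. Walking lay wholly above swimming in 101 to 174 such genes with a library left out, in 4 with library totals, in 23 at the ratio of 1.5, in 189 without transection library 3 and swimming library 2, and in 195 of the 258 without walking library 1. The 258 genes called lower with swimming than with walking numbered 24 with DESeq2 and 0 to 30 with a library left out, and those called for walking against contusion numbered 0 in every setting run. For walking against uninjured muscle the number was 6 with library totals, 6 with the compared groups alone, 19 with DESeq2 and 0 to 11 with a library left out. For transection it was 130 with library totals, 11 with the compared groups alone and 14 to 37 with a library left out. For swimming against contusion it was 7 with library totals, 71 without the filter, 37 with the compared groups alone and 0 to 202 with a library left out, and against uninjured muscle 163 to 241. The labels do not say what libraries with the same replicate number share. For swimming and contusion, deviations of same-numbered libraries correlated between 0.0464 and 0.428, and 4 of 8 libraries correlated best with their own number. In the other comparisons 0 to 3 of 8 did. Whether same-numbered libraries were handled together was not tested. With the replicate number as a block, 79 of the 258 were called against contusion, and no other count moved by over 1.5 times. Where a setting changed a count, the cause was not tested.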
